A study of Mus musculus with 6 samples.

Results

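The miR-183 cluster is a group of 3 miRNA hairpins, Mir183, Mir96 and Mir182, and its mature miRNAs were followed here in 6 mouse liver libraries. Its members were taken by name as every entry for an arm of mmu-miR-182, mmu-miR-183 or mmu-miR-96. This gave 5 of the 1039 mature miRNAs in the table (762 of them under mouse names), namely the 5p arms mmu-miR-182-5p, mmu-miR-183-5p and mmu-miR-96-5p and the 3p arms mmu-miR-182-3p and mmu-miR-183-3p. mmu-miR-96-3p was not analysed here. Small RNA was sequenced from the liver of wild type ICR mice, an outbred stock, aged 30 weeks. All mice ate a high-fat diet (HFD) throughout, for 12 weeks before gavage and during 8 weeks of gavage. The J group (3 mice) received JTXK granule, an extract of several medicinal plants that include Rehmannia, Cornus, ginseng, Coptis, Salvia and Pueraria, and the M group (3 mice) received sterile water. The mice are called J1 to J3 and M1 to M3. The sample label of M1 has another prefix than those of M2 and M3, and what the prefix stands for is not given. Each library was made from 1 mouse, chosen from a larger group, and mice on a standard diet were not sequenced in the libraries analysed here, so levels in a liver without HFD are not known from these data.

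The 3 hairpins are transcribed together as 1 primary RNA, which Drosha and Dicer cut into mature miRNAs. A mature miRNA pairs mainly through its seed, bases 2 to 8 from its 5′ end, with sites in the 3′ untranslated regions (3′-UTR) of mRNAs and lowers their output. The cluster is best known from sensory cells of the eye, ear and nose, and it is also made in other epithelial cells and in activated lymphocytes. In liver it is known as a target of SREBP-2, the transcription factor that senses low sterol and switches on cholesterol synthesis. Its members were reported to act on Insig2 and Fbxw7, which restrain SREBP, and on Foxo1, which drives gluconeogenic genes when insulin is low.

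The 5p sequences, shown because the members differ in the letters that choose their targets, were read from RefSeq on the GRCm38.p6 assembly, with the seed in capitals:
mmu-miR-182-5p: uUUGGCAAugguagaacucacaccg
mmu-miR-96-5p: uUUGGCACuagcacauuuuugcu
mmu-miR-183-5p: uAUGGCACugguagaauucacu
Counted from the 5′ end, the seeds of mmu-miR-182-5p and mmu-miR-96-5p differ at the last base (A8C), and those of mmu-miR-182-5p and mmu-miR-183-5p at both ends (U2A and A8C). No 2 members share a full seed. Aligned without gaps over their full length, mmu-miR-182-5p and mmu-miR-183-5p are identical at 18 of 22 positions, of which 13 of 15 lie outside the seed. For mmu-miR-182-5p and mmu-miR-96-5p these counts are 12 of 23 and 6 of 16. Among the mature mouse miRNAs of RefSeq, the seed of mmu-miR-96-5p is shared with mmu-miR-1271-5p, which was not analysed here, and the other seeds are not shared. The sequences of the minor 3p arms are given with their reads below.

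All 3 hairpins lie on the minus strand of chromosome 6. Mir182 is at chr6:30165918-30165992, Mir96 at chr6:30169446-30169551 and Mir183 at chr6:30169668-30169737 (GRCm38.p6). In the direction of transcription Mir183 comes first, 116 bases before Mir96, and Mir182 follows 3453 bases after Mir96. In the GENCODE annotation of GRCm38 no other gene overlaps these 3820 bases, so the hairpins are neither exonic nor intronic. The nearest protein-coding genes are Nrf1 at 12459 bases and Ube2h at 41551 bases, and the noncoding RNA Rncr4 begins 3155 bases beyond Mir183 on the opposite strand.

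Matches to the seeds were looked for in the longest annotated 3′-UTR of Foxo1, Insig2 and Fbxw7, to show where members of 1 cluster could meet the same or different mRNAs. The motifs were TTGCCAA for mmu-miR-182-5p, GTGCCAA for mmu-miR-96-5p and GTGCCAT for mmu-miR-183-5p, searched on the mRNA strand alone, and the first pair share the run TGCCAA. The matches are in capitals:
Foxo1, mmu-miR-183-5p, chr3:52347215-52347221: taaggactGTGCCATtggga
Foxo1, mmu-miR-96-5p, chr3:52347241-52347247: acaatgaaGTGCCAAactca
Foxo1, mmu-miR-182-5p, chr3:52350882-52350888: gtttgctcTTGCCAAaagct
Insig2, mmu-miR-96-5p, chr1:121305605-121305611: atgtcaatGTGCCAAacgtg
Fbxw7, mmu-miR-182-5p, chr3:84978129-84978135: ttttttttTTGCCAAccatt
Fbxw7, mmu-miR-182-5p, chr3:84978139-84978145: gccaaccaTTGCCAAtgtca
Foxo1 held 1 match to each member in 6240 bases, Insig2 held 1 match in 1553 bases and Fbxw7 held 2 in 1657 bases. Such matches are common. Of 595 mouse 3′-UTRs within 20% of the length of that of Foxo1, 38.7% held the motif of mmu-miR-182-5p, 32.1% that of mmu-miR-183-5p and 27.9% that of mmu-miR-96-5p. For lengths like that of Insig2, 8.75% held the motif of mmu-miR-96-5p, and for lengths like that of Fbxw7, 11.6% held that of mmu-miR-182-5p. The mRNAs were not measured in these samples.

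The libraries held 2626353 to 4314134 miRNA reads, and values are in reads per 1000000 miRNA reads of the library (RPM). The liver label was checked on 5 hepatocyte miRNAs, among them mmu-miR-122-5p, which summed to 391597 to 419287 RPM in J1 to J3 and 392287 to 450543 RPM in M1 to M3. M1 stood apart in mmu-miR-142a-3p, a miRNA of blood-derived immune cells, at 444 RPM there and 25.3 to 47.0 RPM in the other 5 libraries. Its other arm, mmu-miR-142a-5p, was at 3709 RPM in M1 and 525 to 961 RPM elsewhere. Not all immune miRNAs followed. In M1 mmu-miR-223-3p, mmu-miR-155-5p and mmu-miR-342-3p were at 25.1, 3.43 and 554 RPM, below 35.5, 4.69 and 665 RPM in M2. mmu-miR-150-5p was highest in M1, at 47.2 RPM. The main results on spread, likeness and groups are therefore also given without M1.

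In these livers the cluster was expressed at a modest level. Each 5p member differed by 3.11 to 5.43-fold between the highest and lowest mouse of a group. The group means differed by 2.47 to 2.84-fold. mmu-miR-96-5p was the most abundant member, followed by mmu-miR-182-5p and mmu-miR-183-5p, and this order held in all 6 libraries. By mean RPM they ranked at places 66, 74 and 113 in the table. Together they took from 0.0293% (J1) to 0.306% (M1) of a library's miRNA reads.

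mmu-miR-96-5p, whose seed mutations cause deafness in mice and humans, was at 142, 271 and 605 RPM in J1, J2 and J3 and at 1533, 864 and 493 RPM in M1, M2 and M3. These values rest on 613 to 4026 reads, and the 95% Wilson interval of the lowest library runs from 131 to 154 RPM. The highest library is 10.8 times the lowest. M1 is the highest and J1 the lowest, and the groups overlap because J3 lies above M3.

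mmu-miR-182-5p, which is known to lower FoxO1 in activated T cells, was at 114, 218 and 487 RPM in J1 to J3 and at 1117, 733 and 287 RPM in M1 to M3. Its reads numbered 491 to 2934, and the interval of the lowest library is 104 to 124 RPM. The spread over all libraries was 9.82-fold, again with J3 above M3.

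mmu-miR-183-5p, the member nearest to the start of the primary RNA, was at 37.1, 75.1 and 201 RPM in J1 to J3 and at 415, 245 and 115 RPM in M1 to M3. It had 160 to 1089 reads, with an interval of 31.8 to 43.3 RPM in the lowest library, and its spread was 11.2-fold. For each of the 3 members the 6 libraries stand in the same order, from J1 through J2, M3, J3 and M2 to M1. In each case the 95% Wilson intervals of neighbours in this order do not overlap, so counting error is smaller than the steps between mice. Intervals cover counting error only, since copies made by PCR were not told apart.

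**Figure D1:**
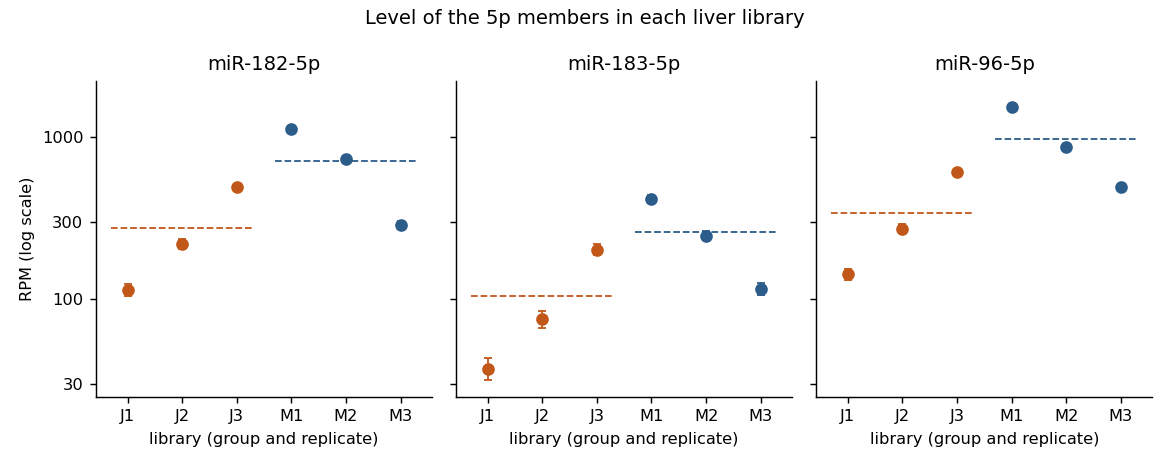
RPM on a log scale of mmu-miR-182-5p, mmu-miR-183-5p and mmu-miR-96-5p in each library (J1 to J3 with JTXK granule, M1 to M3 with water), with 95% Wilson intervals of the reads as bars and the mean of each group as a dashed line. All 3 panels repeat the same pattern, with J1 lowest, M1 highest and J3 above M3.

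This range is wide for these libraries. Over the 306 mouse miRNAs with at least 10 reads in every library, the median ratio of the highest to the lowest library was 1.99. The members took places 12 (mmu-miR-183-5p), 13 (mmu-miR-96-5p) and 14 (mmu-miR-182-5p) of the 306 by this ratio. mmu-miR-122-5p differed by 1.26-fold between its highest and lowest library. Without M1 the spread was 6.08-fold for mmu-miR-96-5p, 6.44-fold for mmu-miR-182-5p and 6.62-fold for mmu-miR-183-5p, at places 13, 11 and 9, and the median ratio was 1.73. Within the J group alone the members differed by 4.26 to 5.43-fold, and within the M group alone by 3.11 to 3.89-fold.

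Sequencing depth ran against the level of the cluster. J1, with the lowest level, had 4314134 reads, and M1, with the highest, had 2626353. The whole 5p reads of the cluster, before division by depth, numbered 1264, 2022 and 3627 in J1 to J3 and 8049, 6284 and 3849 in M1 to M3. The part of depth in the level was not tested.

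The 3 members moved together across the 6 livers. Pearson's r of log2(RPM + 1) was 0.9944 for mmu-miR-182-5p with mmu-miR-183-5p, 0.9868 for mmu-miR-182-5p with mmu-miR-96-5p and 0.9916 for mmu-miR-183-5p with mmu-miR-96-5p, and Spearman's rho was 1.0 for each. Each of the 3 pairs gave p = 0.00278 by r and by rho (exact two-sided permutation test over the 720 orders of 6 libraries, the smallest that it can give), and 0.00278 after Benjamini-Hochberg adjustment over the 3 pairs. Without J1 and M1, the libraries farthest from the median of mmu-miR-182-5p and of mmu-miR-183-5p, r was 0.9805, 0.9499 and 0.9656, in the same order of pairs. Without M1 alone it was 0.9909, 0.9777 and 0.9872. After the mean of each group was removed, r was 0.9906, 0.9846 and 0.9973, so the members also moved together among mice of the same group. The members share a library and its depth, and RPM sums to a fixed total.

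**Figure D2:**
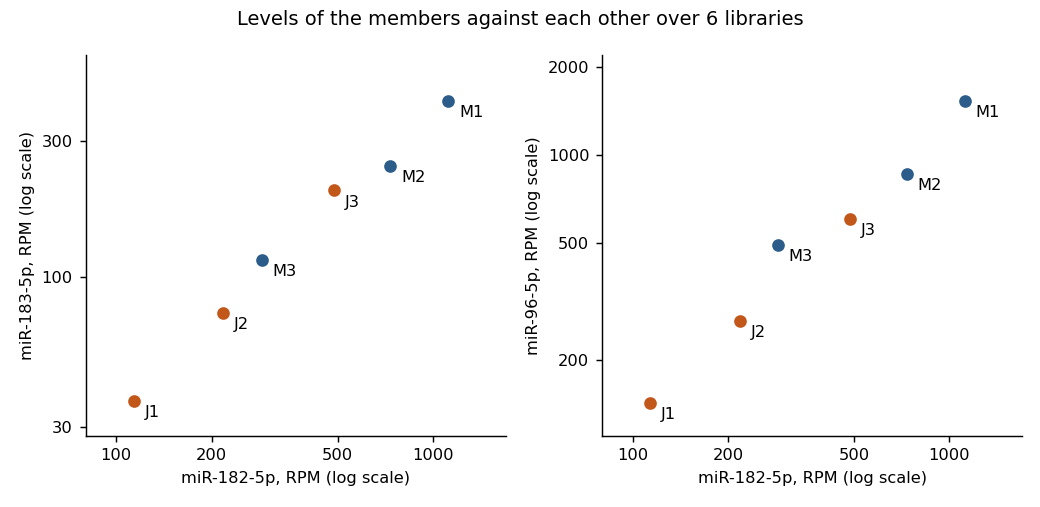
RPM of mmu-miR-183-5p (left) and mmu-miR-96-5p (right) against mmu-miR-182-5p, both axes on a log scale, 1 point per library (J1 to J3 in orange, M1 to M3 in blue). The 6 points of each panel lie close to a line, with r = 0.9944 on the left and 0.9868 on the right, and libraries of both groups lie along it.

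Other miRNA pairs give the scale. Of the 46665 pairs of the 306 miRNAs, 39 (0.0836%) had an r at or above that of the least alike members, and the median r was 0.07. For mmu-miR-182-5p and for mmu-miR-183-5p, the other members ranked first and second of 305 miRNAs by r, and the same held for mmu-miR-96-5p. Without M1 these ranks stayed first and second, while 0.302% of pairs reached the least alike members and the median r was 0.10. Neighbouring miRNAs are the closer comparison, because hairpins side by side are often cut from 1 RNA. Of the 306 miRNAs, 246 have a single position in RefSeq, and 121 pairs of them come from different hairpins on the same strand within 10 kb. Their median r was 0.60, and the cluster's pairs took places 2, 3 and 4 of the 121, after mmu-miR-136-3p with mmu-miR-434-5p (r = 0.9947). Pairs of other clusters came close behind. They include mmu-miR-379-5p with mmu-miR-411-5p (r = 0.9866) and mmu-miR-181c-5p with mmu-miR-181d-5p (r = 0.9858). Without M1 the median was 0.57 and the cluster's pairs took places 4, 6 and 8. These are descriptions over 6 libraries, and they were not tested.

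The proportions between members were close to constant while the summed level changed 10.5-fold. Of the 5p reads of the cluster, mmu-miR-182-5p held 38.8%, 38.6% and 37.6% in J1, J2 and J3 and 36.5%, 39.8% and 32.1% in M1, M2 and M3. mmu-miR-183-5p held 12.7%, 13.3% and 15.6% in the J group and 13.5%, 13.3% and 12.9% in the M group. mmu-miR-96-5p held 48.5%, 48.1% and 46.8% in the J group and 50.0%, 46.9% and 55.0% in the M group. The library that departs most is M3, where the share of mmu-miR-96-5p (95% Wilson interval 53.5% to 56.6%) lies above the intervals of the other 5 libraries and that of mmu-miR-182-5p (30.6% to 33.6%) lies below them.

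The ratio of mmu-miR-96-5p to mmu-miR-182-5p was 1.25, 1.24 and 1.24 in the J group and 1.37, 1.18 and 1.71 in the M group. The 3 J libraries are almost the same in this ratio and lie inside the range of the M libraries. On the log2 scale the ratio was lower in the J group by 0.17, with p = 0.4 (exact two-sided permutation test, n = 3 per group, adjusted p = 0.75 over the 3 ratios, and 0.1 is the smallest p possible). For mmu-miR-182-5p over mmu-miR-183-5p the difference was 0.03 (exact permutation p = 0.9, adjusted p = 0.9), and for mmu-miR-96-5p over mmu-miR-183-5p it was -0.14 (exact permutation p = 0.5, adjusted p = 0.75). With 3 mice each this test could not have passed 0.05, so it leaves a difference in the proportions undetermined.

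**Figure D3:**
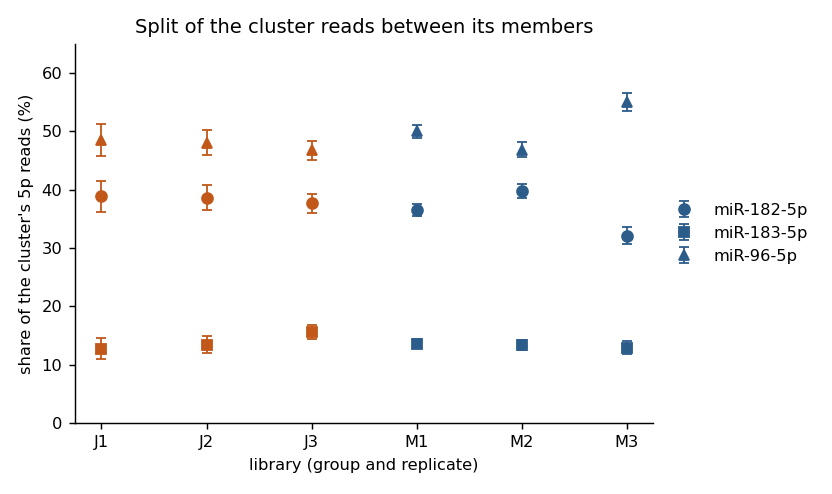
Share of the 5p reads of the cluster held by each member, in percent, for each library (J group in orange, M group in blue), with 95% Wilson intervals. The shares keep the same order in all 6 libraries, and M3 has the highest share of mmu-miR-96-5p (55.0%) and the lowest of mmu-miR-182-5p (32.1%).

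The 3p arms were close to the limit of detection, and their sequences, again with bases 2 to 8 in capitals, are given to show what was counted:
mmu-miR-183-3p: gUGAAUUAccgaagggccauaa
mmu-miR-182-3p: gUGGUUCUagacuugccaacu
mmu-miR-183-3p had 2, 1 and 2 reads in the J group and 5, 8 and 3 reads in the M group. Summed over libraries this was 5 reads against 16, a ratio of J to M of 0.302 at equal depth (95% exact interval of the counts 0.0864 to 0.862, which compares these libraries and not the conditions). It was 0.611% of all reads of its hairpin (95% Wilson interval 0.400% to 0.932%), with 0.501% in the J group and 0.656% in the M group. mmu-miR-182-3p had 3 reads in J2, 1 read in M1 and 0 in the other libraries. A count of 0 was taken to allow up to 3 reads, or 0.695 to 1.07 RPM in these libraries. The upper 95% Wilson limits there are 0.890 to 1.37 RPM. Reads of mmu-miR-182-3p were 0.0430% of the reads of its hairpin (95% Wilson interval 0.0167% to 0.110%). For both hairpins nearly all reads came from the 5p arm, in both groups.

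Treated and untreated livers were then set against each other to ask whether JTXK granule went with another level of the cluster in HFD-fed liver. All 3 members had a lower mean in the J group, and their levels overlapped between the groups. mmu-miR-96-5p averaged 339 ± 239 RPM (SD, n = 3) with JTXK granule and 963 ± 527 RPM (SD, n = 3) with water. mmu-miR-182-5p was at 273 ± 192 and 713 ± 415 RPM, and mmu-miR-183-5p at 105 ± 86.0 and 258 ± 150.0 RPM. The SD is large beside each mean, which is the spread between mice described above. Summed, the cluster was at 293, 564 and 1293 RPM in J1 to J3 and at 3065, 1842 and 896 RPM in M1 to M3.

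The test was limma with a variance trend, a linear model with variances moderated across miRNAs, on log2(RPM + 1), and it covered the 548 miRNAs that averaged above 1 RPM in 1 group or both. Of the 5 members, 4 passed this filter, mmu-miR-183-3p through the M group alone. A miRNA was called when its absolute log2 fold change exceeded 0.3 and its unadjusted p was under 0.05, the thresholds of the study. On the log2 scale the J group differed from the M group by -1.60 (standard error 0.59) for mmu-miR-96-5p, -1.42 (0.64) for mmu-miR-182-5p, -1.45 (0.68) for mmu-miR-183-5p and -0.79 (0.39) for mmu-miR-183-3p. The unadjusted p from limma was 0.0296, 0.0612, 0.0693 and 0.081, in the same order, and the adjusted p was 0.71 for all 4 (Benjamini-Hochberg over 548). The value of mmu-miR-183-3p, which rests on 1 to 8 reads a library, moved to -1.50 with 0.1 RPM added, -0.15 with 10 RPM added, -1.59 in edgeR and -1.67 in DESeq2. Without M3 it was -1.08 and past the thresholds (unadjusted p of 0.0291 from limma), beside 5.06% of all miRNAs called lower. Since mmu-miR-183-3p entered the test only through the group where it is high, its values are a description.

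mmu-miR-96-5p was therefore called lower in the J group, and the other 3 were not. Over all 548 miRNAs the same rule called 29, or 5.29%, with 3.83% lower and 1.46% higher in the J group, and no miRNA had an adjusted p under 0.05 in limma or edgeR (29 and 45 had an unadjusted p under 0.05) against 2 in DESeq2. The split of all calls depended on scaling, with 8 higher and 21 lower in the J group on RPM, 17 and 13 after median-of-ratios scaling, and 20 and 11 after quantile normalization. The median log2 fold change of all miRNAs was -0.13, -0.04 and 0.08 under these scalings, and mmu-miR-96-5p was at -1.60, -1.49 and -1.32. The call of mmu-miR-96-5p and the lack of one for its neighbours does not show that they changed differently. The test of their ratios, with 3 mice a group, could not give a p under 0.1 and does not settle it.

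**Figure D4:**
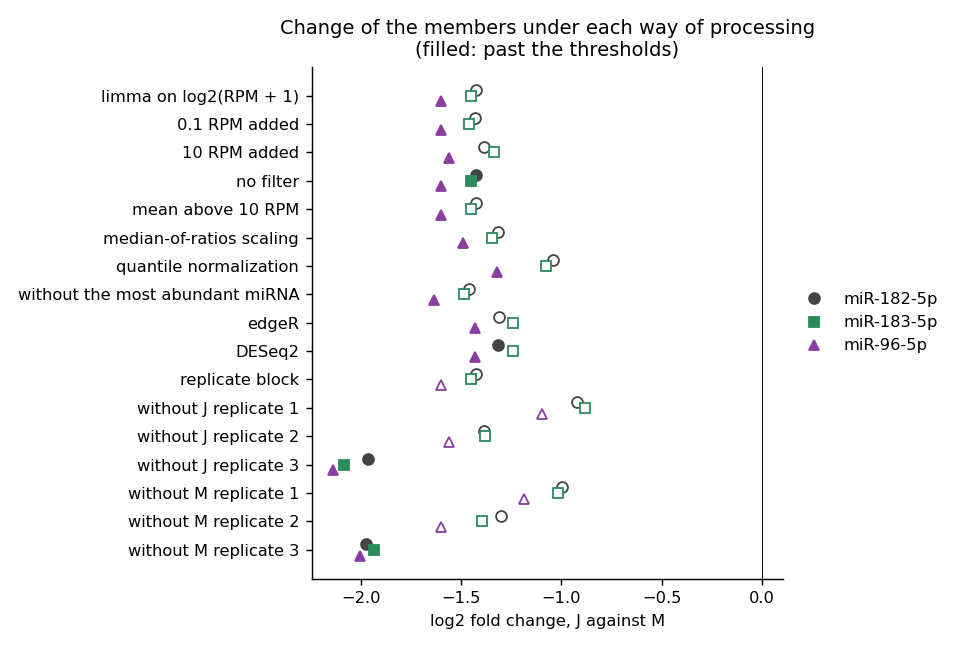
Log2 fold change of each 5p member, J group against M group, under the limma test and 16 other ways of processing the data. All values lie below 0, filled symbols are past the thresholds, and the widest moves come with a library left out.

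The size of the change depended on single mice. Without M1 the log2 fold changes were -1.19 for mmu-miR-96-5p, -0.997 for mmu-miR-182-5p and -1.02 for mmu-miR-183-5p, and none of the 3 was called (unadjusted p of 0.0709, 0.15 and 0.168 from limma), where 4.24% of all miRNAs were called lower. Without J3, the J library that overlaps the M group, it was -2.14, -1.96 and -2.09, and all 3 were called (0.00614, 0.0168 and 0.0115), beside 5.72% of all miRNAs called lower. Without M3, the lowest M library, it was -2.01, -1.97 and -1.93, and again all 3 were called, beside 5.06% called lower. The call of mmu-miR-96-5p was also lost without J1 (-1.10), J2 (-1.56) or M2 (-1.60), where 3.24%, 2.57% and 7.09% were called lower, while without J1 the values of mmu-miR-182-5p and mmu-miR-183-5p were -0.92 and -0.88. The log2 ratio of the summed group means was -1.43 with all libraries, -0.93 without M1 and -2.17 without J3. Over all 548 miRNAs 58.9% of the log2 fold changes were below 0.

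Outside the cluster, the miRNAs whose pattern was most like its own came from other chromosomes and carry other seeds. Likeness was Pearson's r over the 6 libraries between log2(RPM + 1) of a miRNA and the mean standardized profile of the 3 members, over the other 303 miRNAs with at least 10 reads in every library. The 5 most alike, with bases 2 to 8 in capitals to show that none has a seed of the cluster, were:
mmu-miR-425-3p: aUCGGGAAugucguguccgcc
mmu-miR-744-5p: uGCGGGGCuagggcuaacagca
mmu-miR-200a-3p: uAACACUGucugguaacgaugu
mmu-miR-200b-3p: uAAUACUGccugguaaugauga
mmu-miR-322-5p: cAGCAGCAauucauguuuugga
mmu-miR-425-3p (chr9:108568830-108568850) was nearest, with r = 0.979, at 5.33, 7.54 and 8.91 RPM in J1, J2 and J3 and 15.2, 12.0 and 8.85 RPM in M1, M2 and M3. Its range of 2.86-fold is far smaller than that of the cluster. mmu-miR-744-5p (chr11:65734799-65734820) had r = 0.935 and a range of 2.10-fold, and mmu-miR-322-5p (chrX:53054306-53054327) had r = 0.922 and 2.33-fold.

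mmu-miR-200a-3p and mmu-miR-200b-3p, epithelial miRNAs that keep cells from losing E-cadherin, are made from neighbouring hairpins on chromosome 4 (chr4:156054911-156054932 and chr4:156055685-156055706). mmu-miR-200b-3p was at 453, 416 and 1168 RPM in J1 to J3 and 2163, 1220 and 575 RPM in M1 to M3, with r = 0.935. mmu-miR-200a-3p was at 378, 466 and 1033 RPM in J1 to J3 and 1921, 945 and 473 RPM in M1 to M3, also with r = 0.935. As with the cluster, J3 and M1 and M2 were high. None of the 5 was called between the groups (log2 fold changes of -0.34 to -0.93, unadjusted p of 0.059 to 0.269 from limma), beside 5.29% called over all 548. Without M1 their r was 0.967, 0.913, 0.897, 0.887 and 0.884, in the order of the sequences. Which miRNAs rank nearest rests on single libraries, as only 1 to 4 of these 5 stayed among the nearest 5 when a library was left out.

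**Figure D5:**
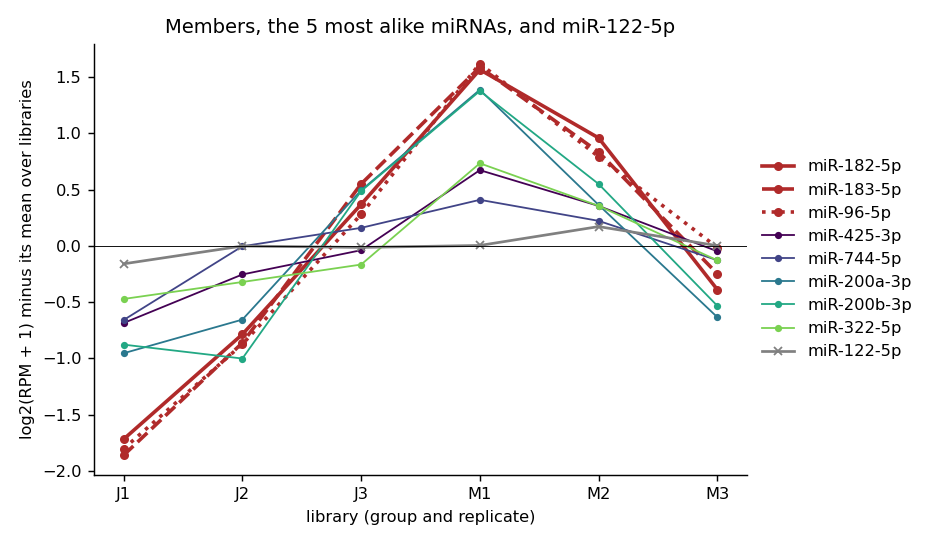
Log2(RPM + 1) of each miRNA minus its mean over the 6 libraries, for the 3 members (red), the 5 miRNAs most like them and mmu-miR-122-5p (grey), where lines only join the values of 1 miRNA. The members overlie each other and span more than 3 log2 units, the 2 miR-200 miRNAs follow with about 2, and mmu-miR-122-5p stays near 0.

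Since the cluster is also made in epithelium and lymphocytes, its level is set here beside marker miRNAs of other cells. In bulk liver, fewer cells of a type and less RNA per cell cannot be told apart. The 6 miRNAs of bile duct and other epithelium summed to 952, 1036 and 2382 RPM in J1 to J3 and 4298, 2350 and 1217 RPM in M1 to M3, and none was at 0 in any library. This is nearly the order of libraries seen for the cluster, but for J3 and M2, which change places. Of the 6, mmu-miR-200a-3p, mmu-miR-200b-3p, mmu-miR-200c-3p (r = 0.888) and mmu-miR-429-3p (r = 0.921) followed the cluster, while mmu-miR-141-3p (r = 0.581) and mmu-miR-375-3p (r = 0.03, with as few as 2 reads) did so less or not at all. Without M1 the r of the 6 was 0.635 to 0.897, with mmu-miR-375-3p at 0.635. None of the 6 was called between the groups (3.83% of all 548 were called lower), and their median log2 fold change was -0.71. Without M1 it was -0.26, and mmu-miR-375-3p was called lower in the J group, beside 4.24% of the 519 miRNAs then tested.

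The 6 immune miRNAs summed to 763 to 1108 RPM with JTXK granule and 1383 to 4782 RPM with water, none was at 0, and 1 was called, lower in the J group (mmu-miR-342-3p, also without M1), beside 3.83% of all 548 and 4.24% without M1. Without M1 the sum in the M group was 1383 to 1461 RPM. The largest part of each sum was mmu-miR-142a-5p, at 525 to 761 RPM with JTXK granule and 683 to 3709 RPM with water, which overlap. Levels of mmu-miR-142a-3p, mmu-miR-150-5p, mmu-miR-155-5p and mmu-miR-223-3p also overlapped between the groups. The r of the immune miRNAs with the cluster was 0.424 to 0.744, with a median of 0.692. Medians were 0.905 for the epithelial, 0.550 for the stromal and 0.244 for the hepatocyte list. They were -0.126 for the red blood cell and -0.234 for the sensory, neural and endocrine list. The hepatocyte list ran from -0.579 (mmu-miR-192-5p) to 0.682 (mmu-miR-122-5p). Without M1 the medians of the immune, epithelial, stromal and hepatocyte lists were 0.630, 0.837, 0.401 and 0.213. Those of the red blood cell and sensory lists were then -0.157 and -0.585. mmu-miR-122-5p had r = 0.875 without M1, over a range of 1.26-fold. The lists were not tested against each other. The stromal list summed to 12582 to 16890 RPM and 16765 to 25242 RPM, with 4 of its 5 names in the table, none at 0 and 3 called lower in the J group (mmu-miR-214-3p, mmu-miR-145a-5p and mmu-miR-199a-5p), beside the same shares of all miRNAs. Without M1 mmu-miR-214-3p was not called. The fifth name, mmu-miR-199a-3p, has the same mature sequence in RefSeq as the entry mmu-miR-199b-3p, which is not in the sum and averaged 759.7 RPM with JTXK granule and 860.02 RPM with water. The study lists these 3 and mmu-miR-342-3p as changed from these same libraries, so their calls are not independent of it. The red blood cell list, with 3 of 4 names in the table and none at 0, summed to 4362 to 6308 RPM and 2581 to 9886 RPM, and 0 were called. These sums leave out the entry mmu-miR-486b-5p, a red cell miRNA under its paralogue's name, which averaged 1816 RPM with JTXK granule and 2106 RPM with water. Of the sensory, neural and endocrine list, 3 of 4 were measured, mmu-miR-124-3p and mmu-miR-9-5p were at 0 in some library, and mmu-miR-7a-5p made nearly all of the sum of 738 to 1239 RPM and 809 to 1696 RPM. The part of these cells in the level of the cluster was not tested.

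Other miRNAs tied to the same pathway were compared as a list. SREBP transcripts host mmu-miR-33, which lowers the cholesterol exporter ABCA1, and mmu-miR-185 and mmu-miR-342 are known to restrain SREBP. All 6 arms of these miRNAs were tested, 0 were called higher and 2 lower in the J group (3.83% of all 548 were called lower), and their median log2 fold change was -0.48, against -0.13 for all 548. Both calls are arms of 1 hairpin, miR-342, whose 3p arm is also on the immune list. mmu-miR-342-3p was at 185, 58.6 and 242 RPM in J1 to J3 and 554, 665 and 304 RPM in M1 to M3, which do not overlap, a log2 fold change of -1.79 (unadjusted p of 0.0138, adjusted p = 0.64 from limma). Of all 548 miRNAs, 9.31% were separated in this direction and 13.5% in either. mmu-miR-342-5p, the other call, was at 0 to 1.07 RPM with JTXK granule and 1.16 to 5.33 RPM with water. It passed the filter on low values through the M group alone, where it is high, so its call is a description and supports nothing about the list. It was not called without M1, which left 1 call. mmu-miR-33-5p was at 2.55, 10.9 and 9.98 RPM in J1 to J3 and 12.9, 7.62 and 10.5 RPM in M1 to M3, which overlap, with a log2 fold change of -0.52 (adjusted p = 0.759 from limma).

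Of 8 other miRNAs reported to act on Foxo1, 7 were tested under the listed name (mmu-miR-486a-5p was not), 0 were called in either direction, beside 5.29% of all 548, and their median log2 fold change was -0.16, against -0.13 for all. mmu-miR-21a-5p had the highest level of these, at a mean of 152012 RPM with JTXK granule and 130315 RPM with water (log2 fold change 0.21, adjusted p = 0.732 from limma). mmu-miR-27b-3p was at 23430 and 26154 RPM (-0.16, adjusted p = 0.71). mmu-miR-27a-3p was at 1393 and 1825 RPM (-0.36, adjusted p = 0.71). For scale, mmu-miR-30a-5p, which the study selected, had a log2 fold change of 0.61 (standard error 0.13) on levels of 45276 and 29507 RPM, a smaller change than that of the cluster with a far smaller standard error. After quantile normalization it was 0.37 and not called.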

How the data were processed

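Liver small RNA was sequenced in 3 J and 3 M mice. The authors filtered the reads, matched the unique ones to Rfam and miRBase, and deposited RPM, the reads of a miRNA per 1000000 miRNA reads of its library. The submitters' processing notes name the build mm9. Aligner, mismatch rule and the treatment of reads that fit several miRNAs are not given in the sources used here, and whether any read fits both mmu-miR-182-5p and mmu-miR-183-5p was not tested. All values (100%) were whole multiples of the RPM of 1 read within 0.01, so whole reads were recovered, and 1 read is worth 0.232 to 0.381 RPM. Positions and sequences are from RefSeq (GRCm38.p6) and GENCODE, and no coordinates of the table were used.

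J was compared with M by limma 3.58.1 in R 4.3.3. Alternatives were 0.1 or 10 RPM added, no filter or a mean above 10 RPM, quantile normalization, median-of-ratios scaling, RPM recomputed after leaving out the most abundant miRNA, DESeq2 1.42.0 and edgeR 4.0.16 on whole reads (edgeR called 45 miRNAs), a replicate term, and each library left out. The read-count tools change the model and the scaling together. The tests were checked on simulated data. Python 3.11.15 and scipy 1.17.1 gave the correlations and permutation tests. The members, lists and rules were chosen with earlier results of these data known. Named were all members, the 5 miRNAs most like them, miRNAs sharing a seed, the marker lists, the SREBP and Foxo1 lists, and mmu-miR-30a-5p and mmu-miR-122-5p for scale. The ratios between members and the pairs of neighbouring hairpins were added after the values were seen. Replicates are different mice.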

Additional observations from a re-analysis of the deposited data

How the results depend on the processing

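All 3 5p members stayed below 0 under the 16 alternatives, with adjusted p from 0.489 to 0.852 over limma, edgeR and DESeq2. mmu-miR-96-5p was no longer called with the replicate block (-1.60, unadjusted p of 0.0666) and without J replicate 1 or 2 or M replicate 1 or 2, and with a library left out it ranged from -2.14 to -1.10. mmu-miR-182-5p was called without the filter (-1.42) and by DESeq2 (-1.32), and mmu-miR-183-5p without the filter (-1.45). Without the filter their fold changes were those of the main test, with smaller standard errors (0.55 and 0.58). Of all miRNAs, 2.5% were called lower without the filter and 4.2% by DESeq2. Both members were also called without J replicate 3 or M replicate 3, within ranges of -1.97 to -0.92 and -2.09 to -0.88. In these fits 5.72% and 5.06% of all miRNAs were called lower. The causes were not tested. The replicate numbers are not known to pair the mice (deviations of same-numbered libraries correlated at 0.05, 0.06 and -0.01), and with the block 27 miRNAs were called. Among the members and listed miRNAs it also ended the calls of mmu-miR-342-5p and mmu-miR-214-3p and added mmu-miR-143-3p.

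The 3 correlations kept p under the threshold in all 11 alternatives, with r from 0.9641 to 0.9984. With 5 libraries their exact p was 0.0167, the smallest possible. The log2 ratio of the summed level ranged from -2.17 to -0.93. The count of 29 called miRNAs became 45 with edgeR and ranged from 21 to 46 with a library left out (46 without M replicate 2). The 3p arms, at 0 to 8 reads, are limited by depth.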

Other observations

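Several miRNAs ran opposite to the cluster. By the same measure and over the same 303 miRNAs, the 5 with the lowest r were mmu-miR-203-3p, mmu-miR-1843b-5p, mmu-miR-467a-5p, mmu-miR-99a-5p and mmu-miR-193a-3p. mmu-miR-203-3p, known from the epidermis, was at 1101, 1015 and 925 RPM in J1 to J3 and at 711, 781 and 1014 RPM in M1 to M3 (r = -0.943). mmu-miR-99a-5p was among the most abundant miRNAs of these livers, at 93349, 87931 and 81012 RPM in J1 to J3 and 78911, 83962 and 90884 RPM in M1 to M3 (r = -0.894). The ranges of the 5 were narrow, with 1.18 to 1.72 between the highest and the lowest library, and none was called between the groups by limma, which called 5.29% of all 548. Without M1 their r was -0.962 to -0.823. These correlations are descriptions over 6 libraries whose RPM sum to a fixed total.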
